A study of Mus musculus with 10 samples.

Results

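Reads that carry extra adenosines at the 3′ end were followed across the abundant miRNAs of mouse embryonic cortex. The set holds 180 of the 1432 mature miRNA names in the deposited table, namely every name with at least 100 reads, summed over all its 3′ forms, in each of 10 libraries. Of these, 86 come from the 5p arm of their hairpin, 91 from the 3p arm, and 3 (miR-451a, miR-484 and miR-1983) carry no arm in their name. The members were selected on total reads alone, and the share of those reads with an A tail was not used in the choice. Here an A-tailed read is one listed with A, AA or AAA after the mature sequence, and its share is taken over all reads of the same name. Of the 19414 entries of the table, 519 are A-tailed forms of these 180 miRNAs.

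Small RNA came from E13.5 embryonic cortex in a pair of mouse lines, one with a conditional deletion of Dicer and one with a conditional deletion of DGCR8. The Dicer line gave wild types and knock-outs, called Dicer WT and Dicer KO. The DGCR8 line gave wild types, heterozygotes and knock-outs, called DGCR8 WT, DGCR8 HET and DGCR8 KO. Each of these 5 groups had 2 mice and 2 libraries. The sources used here name neither the driver of the deletion nor how many cells carry it, so each knock-out library may mix cells with and without the gene. The column names of the DGCR8 line differ from the sample descriptions in a number, and every DGCR8 value rests on a match by line and index.

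A miRNA hairpin is cut out of its primary transcript by Drosha with its partner DGCR8, and the loop is then removed by Dicer. The Drosha cut makes the 3′ end of a 3p miRNA, while the Dicer cut makes the 3′ end of a 5p miRNA. Free 3′ ends can then be extended by terminal nucleotidyltransferases, among which GLD2 (TENT2) is known for adding A and TUT4 and TUT7 for adding U.

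A listed A need not have been added by such an enzyme, because a cut placed 1 base further along a hairpin whose next base is A gives the same read. The table does not separate the cases, and the authors' mature annotation is not known here. The next lines show mature sequences from RefSeq (build GRCm38.p6) followed by the next 3 hairpin bases, with a capital A for each adenosine in the run that directly follows the mature end. They are shown because their A-tailed shares are among the highest, and the last 3 have no A at that place.
miR-93-3p: acugcugagcuagcacuucccgAgc
miR-23a-3p: aucacauugccagggauuuccAAc
miR-140-3p: uaccacaggguagaaccacggAca
miR-350-3p: uucacaaagcccauacacuuucAcc
miR-106b-5p: uaaagugcugacagugcagauAgu
miR-106b-3p: ccgcacuguggguacuugcugcucc
miR-1198-5p: uauguguuccuggcuggcuugguac
miR-300-3p: uaugcaagggcaagcucucuucgag
The mature miR-93-3p lies at chr5:138165536-138165557 on the minus strand, in an exon of Mcm7 in the GENCODE annotation, and miR-106b-5p lies nearby in an intron of the same gene at chr5:138165787-138165807. The mature miR-140-3p lies at chr8:107551288-107551308 on the plus strand, in an exon of Wwp2.

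Libraries held from 800623 to 4486774 miRNA reads, the 2 lowest being Dicer KO, and the 180 miRNAs took from 98.2% to 98.8% of them. Markers of vessel and blood cells summed to 3.35% and 3.93% of miRNA reads in Dicer KO against 1.01% and 1.27% in Dicer WT. In the other line they summed to 0.961% and 1.07% in DGCR8 KO against 0.604% and 0.606% in DGCR8 WT. DGCR8 HET stood at 0.597% and 0.965%, and the higher value lies within the DGCR8 KO range. Of 12 listed markers, 10 are in the table analysed here and make up these sums, and each of the 10 had reads in every library. The 5 listed miRNAs of neurons and neural progenitors took 9.31% to 10.996% in Dicer KO against 13.3% and 17.4% in Dicer WT, and 12.5% and 12.8% in DGCR8 KO against 15.8% and 17.3% in DGCR8 WT. Most of that sum is miR-9-5p, which is also a progenitor miRNA. The neuronal miR-124-3p had the opposite order, at 0.160% and 0.0939% in Dicer KO against 0.0743% and 0.0778% in Dicer WT, and at 0.331% and 0.288% in DGCR8 KO against 0.204% and 0.178% in DGCR8 WT. So did miR-137-3p of the same list, at 0.00651% and 0.00762% in Dicer KO against 0.00337% and 0.00288% in Dicer WT. In DGCR8 KO miR-137-3p was at 0.0380% and 0.0299%, against 0.0123% and 0.0117% in DGCR8 WT. miR-128-3p overlapped between Dicer KO (0.441% and 1.09%) and Dicer WT (0.895% and 1.18%), and was lower in DGCR8 KO than in DGCR8 WT. Markers of epithelium and choroid plexus took 0.630% to 1.79% in Dicer KO, 0.260% to 0.754% in Dicer WT, 0.102% to 0.253% in DGCR8 KO, 0.0650% to 0.439% in DGCR8 HET and 0.0848% to 0.0878% in DGCR8 WT, with epithelial miR-141-3p at 0 to 9 reads. In whole cortex a change in which cells are present and a change within a cell cannot be told apart. The part of cell make-up in the tail differences below was not tested.

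A-tailed reads made up from 3.06% to 3.74% of the reads of these miRNAs, with the lowest values in the DGCR8 KO libraries, 3.13% and 3.06%. DGCR8 WT stood at 3.41% and 3.33%, Dicer WT at 3.74% and 3.53%, and Dicer KO at 3.34% and 3.63%. The 2 DGCR8 KO libraries lay below the other 8, while Dicer KO overlapped Dicer WT. The widest 95% Wilson interval of these pooled shares spanned 0.0827 percentage points, which covers counting error only. With 2 libraries against 2, an exact two-sided permutation test cannot go below p = 0.333, so these shares are given as values.

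Single A was the usual tail. Forms with A took from 2.57% to 3.08% of reads, forms with AA from 0.435% to 0.566%, and forms with AAA from 0.0581% to 0.101%. Forms with a single T, the letter the table uses for U, were more common than any of these, at 17.4% to 22.1%. Between 52.6% and 63.7% of reads carried no addition.

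The 3p miRNAs carried more A tails than the 5p miRNAs in every library. The median A-tailed share of 3p miRNAs ranged from 3.37% to 4.34% over the 10 libraries, and that of 5p miRNAs from 1.602% to 1.99%. The difference of the medians was between 1.65 and 2.41 percentage points, with a mean of 2.12. Summed reads gave the same order, from 4.16% to 5.06% for 3p against 2.40% to 2.73% for 5p. The 2 lowest 3p medians were those of DGCR8 KO, at 3.37% and 3.50%, and the same 2 libraries were lowest in summed 3p reads, at 4.397% and 4.16%.

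**Figure D1:**
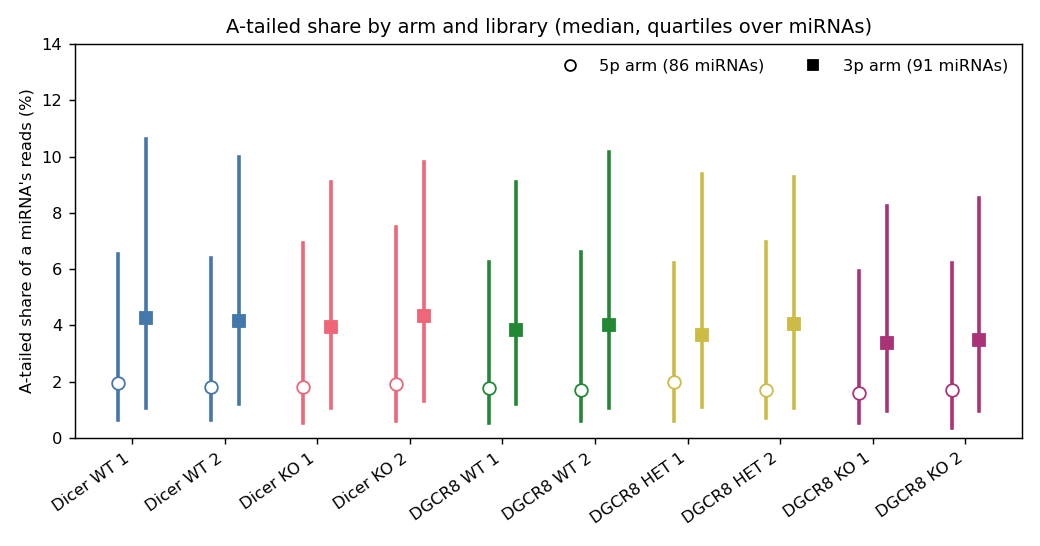
A-tailed share of a miRNA's reads (%) in each of the 10 libraries, for 86 miRNAs of the 5p arm (open circles) and 91 of the 3p arm (filled squares); markers are medians over miRNAs, vertical lines run from the lower to the upper quartile, and colours mark the 5 groups. The 3p median lies between 3.37% and 4.34% and is above the 5p median in every library, while the quartiles of the arms overlap widely.

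Within an arm the miRNAs differed far more than the libraries did. The mean share over 10 libraries was below 1% for 52 miRNAs, above 10% for 37 and above 25% for 12, of which 10 were 3p. At the top stood miR-93-3p, from the cluster inside Mcm7 that is a paralog of miR-17-92, with a mean of 78.7% and a range from 68.5% to 82.3%. It was followed by neuronal miR-124-3p at 67.1%, by miR-151-5p at 51.5% and by miR-23a-3p at 49.0%. For miR-124-3p and miR-151-5p no hairpin sequence was at hand. Whether their listed A is the next hairpin base was therefore not checked, here or in the comparisons below. In miR-93-3p and miR-124-3p, A-tailed reads outnumbered all other reads in every library.

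Among the remaining 3p miRNAs of highest share were miR-140-3p (34.4%), miR-106b-3p (33.6%), miR-350-3p (29.5%), miR-219a-1-3p (27.8%), miR-99b-3p (26.4%), miR-151-3p (26.3%) and miR-300-3p (25.1%). The 5p arm was led, after miR-151-5p, by miR-1198-5p (26.8%), miR-106b-5p (23.1%), miR-28a-5p (18.9%), miR-192-5p (16.0%), miR-99b-5p (12.1%), miR-872-5p (11.3%), miR-125b-5p (11.3%), miR-134-5p (10.8%) and let-7i-5p (10.7%). The per-library precision of these values follows the reads behind them. The widest 95% Wilson interval in any library spanned 14.04 points for miR-93-3p and 16.9 points for miR-106b-3p, but 2.91 points for miR-151-5p and 1.04 points for miR-125b-5p.

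At the other end, miR-99a-3p had 0 A-tailed reads among 8924 reads over all libraries, which allows a share of up to 0.0336%. The next lowest 3p miRNAs were miR-222-3p (0.0617%) and miR-181a-1-3p (0.101%), and the lowest 5p miRNAs were miR-92a-1-5p (0.0267%), miR-30e-5p (0.0329%) and miR-181c-5p (0.0618%). Erythroid miR-451a, which matures without Dicer, had a mean of 0.0953%. Over all libraries miR-222-3p had only 2 A-tailed reads, and miR-92a-1-5p and miR-451a had 4 each, so their order is uncertain. A low share does not mean few listed additions: miR-181c-5p carried a single T on 54.4% of its reads, and miR-30e-5p had only 0.400% of its reads with no addition. As with A, a listed T need not have been added by an enzyme. The median single-T share was 12.1% with U next in the hairpin, 5.80% with C, 3.37% with A and 3.34% with G. For miR-181c-5p no hairpin sequence was at hand.

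The most abundant miRNAs were not the most A-tailed. The 10 with the most reads held from 53.9% to 60.9% of reads of the set and from 33.8% to 43.6% of its A-tailed reads. Among them miR-92a-3p, the most abundant, had a mean share of 2.01%, progenitor miR-9-5p 1.36%, miR-181a-5p 0.114%, miR-26a-5p 1.61% and miR-16-5p 0.662%. Higher shares in that group belonged to miR-125b-5p (11.3%), miR-92b-3p (7.93%) and miR-127-3p (6.04%), and the lowest to miR-30c-5p (0.244%) and miR-30a-5p (0.0908%). Across the 180 miRNAs the Spearman correlation of mean share with abundance was −0.168 and with the mean share of single-T forms 0.275, both given as descriptions of miRNAs measured in the same libraries.

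At the read threshold, miR-145a-5p (lowest library 100 reads), miR-666-3p (101) and miR-31-5p (102) lay just inside, with mean A-tailed shares of 5.95%, 1.14% and 1.54%. Just outside were miR-666-5p (99 reads), miR-28a-3p (98) and miR-672-5p (97), with 2.12%, 27.0% and 2.95%.

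The base that follows the mature end in the hairpin went with the A-tailed share. RefSeq gave a hairpin for 148 of the 180 miRNAs. The 21 whose next base is A had a median share of 11.3%, against 1.72% for the 123 whose next base is C, G or U. The order held on both arms, with 13.7% (4 miRNAs) against 1.39% (64) for 5p and 7.60% (16) against 2.95% (57) for 3p. Overlap was wide: A-next miR-872-3p stood at 0.721% and miR-350-5p at 0.477%, while miR-106b-3p and miR-1198-5p, with U next, were among the highest of all. The miRNAs with A next held from 6.64% to 10.3% of A-tailed reads with 2.46% to 3.60% of reads, and those with another base next held from 47.3% to 62.3% of A-tailed reads. The 32 with no hairpin sequence had a median of 6.68%.

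**Figure D2:**
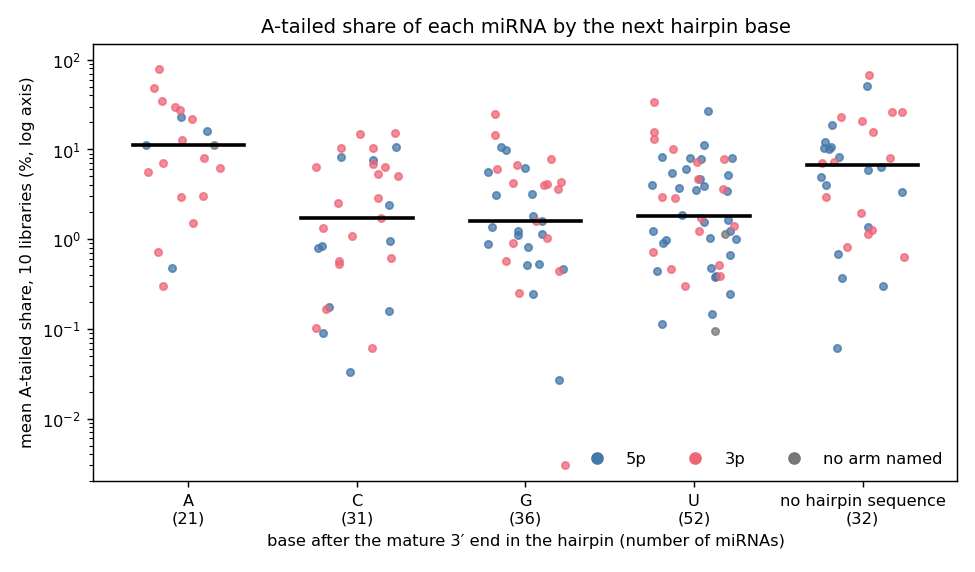
Mean A-tailed share over 10 libraries (%, log axis) of each miRNA, by the base after its mature 3′ end in the RefSeq hairpin; blue points are 5p, red 3p and grey miRNAs with no arm named, and black bars are medians. The 21 miRNAs with A next have a median of 11.3%; miR-99a-3p, at 0, is drawn near the bottom, and 8 miRNAs whose copies differ at this base or whose hairpin ends there are not drawn.

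Among miRNAs whose hairpin gave a next base other than A, the 3p median still exceeded the 5p median in each library, by 0.889 to 2.37 points. That set also leaves out the miRNAs with no hairpin sequence. The gap was narrower than over all miRNAs in 8 libraries and wider in Dicer WT 2 and DGCR8 WT 1.

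For miR-140-3p, whose hairpin continues with A, C and A, the listed additions followed the hairpin in part. Suffix AC, the first 2 of those bases, was its most frequent form in 7 of the libraries at up to 43.4% of reads, and reads with no addition were 0.712% to 2.71%. The full ACA took 1.42% to 3.01%, while ACT, whose last base differs from the hairpin, took 17.5% to 30.1% and was the most frequent form in DGCR8 KO 2. Suffix AA, whose last base also differs, took 8.32% to 12.1%. In miR-93-3p the single A that the hairpin carries took 61.8% to 79.2% of reads, and AA 1.29% to 6.06%.

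Where both arms of a hairpin are in the set, neither arm was the more A-tailed as a rule. Of 24 such hairpins, the 3p share was higher in all 10 libraries in 12, the 5p share in 9, and 3 gave mixed orders. Among the 14 hairpins with no A next on either arm these counts were 5, 7 and 2. The widest gaps were those of miR-93 (78.7% for 3p against 8.09% for 5p), miR-124 (67.1% against 1.37%), miR-350 (29.5% against 0.477%), miR-151 (26.3% against 51.5%) and miR-130b (15.05% against 0.471%). In miR-151 alone of these 5 the 5p arm was higher.

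Changes between groups were tested within each miRNA, as the odds of an A tail, meaning A-tailed reads over all other reads of that name. A change in the level of a miRNA therefore does not enter. All 287 names with enough reads were fitted together by edgeR's quasi-likelihood test, with p-values adjusted by Benjamini-Hochberg over the 287, and 175 of the 180 miRNAs were among them. The 5 that had too few A-tailed reads to be tested were miR-99a-3p, miR-92a-1-5p, miR-222-3p, miR-451a and miR-7a-5p. The fit estimated infinite prior degrees of freedom. Its p-values therefore lean on a spread shared across names, fitted as a trend with read abundance, and allow none particular to single miRNAs. That is an estimate of this setting: with 1 dispersion for all names edgeR gave a finite 81.6. The mice are separate, but p-values rest on 2 per group. With limma on the log2 odds, which lets each miRNA have its own spread, 4 miRNAs were called in Dicer KO and 0 in each of the other comparisons below.

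The first comparison, Dicer KO against Dicer WT, asks whether loss of the enzyme that makes 5p 3′ ends went with other tails. In Dicer KO the odds of an A tail were lower for the strongly tailed miR-151-5p, miR-124-3p, miR-23a-3p, miR-93-3p and miR-106b-5p. They were higher for miR-140-3p, miR-191-5p and miR-219a-1-3p. Some of these calls depended on the setting, as given below. In all, 16 of 175 miRNAs were called at an adjusted p below 0.05, 6 higher and 10 lower. Of all 287 names 6.62% were called, 2.09% higher and 4.53% lower. Taken against reads with no addition in place of all other reads, the split turned to 13 higher and 9 lower among 22. The called miRNAs were 9 of 84 on the 5p arm and 7 of 89 on the 3p arm. By next base, 7 of 21 with A next and 5 of 118 with another base next were called. These classes also differ in A-tailed share, with medians of 11.3% and 1.72%. Whether that affects how readily their miRNAs are called was not tested. The groups of all 16 did not overlap, as was also true of 57.9% of the 114 miRNAs with at least 10 A-tailed reads in each of the 4 libraries, called or not.

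miR-151-5p, from an intron of the kinase gene Ptk2, had A tails on 58.9% and 59.4% of its reads in Dicer WT. In Dicer KO the shares were 37.6% and 43.2%. The groups did not overlap, and both knock-out libraries were the lowest of all 10. The log2 change of the odds was −1.10 ± 0.08 (SE, adjusted p = 1.85e-38), and the call held under every other setting and omission tried. DGCR8 KO lay between, at 45.97% and 46.5% against 56.1% and 55.3% in DGCR8 WT.

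miR-106b-5p carried A tails on 28.4% and 26.6% of reads in Dicer WT and on 17.6% and 15.6% in Dicer KO (−0.91 ± 0.11, adjusted p = 9.76e-15). All 6 libraries of the DGCR8 line lay between these groups, from 22.8% to 25.2%. The difference lay in the single A that its hairpin carries, at 27.4% and 25.7% in the wild type and 16.3% and 14.6% in the knock-out, while AA was 0.779% and 0.800% in the wild type and 1.11% and 0.644% in the knock-out. This call also held under every setting and omission. The opposite arm, miR-106b-3p, was at 38.3% and 35.03% in the wild type and at 31.2% and 35.2% in the knock-out, where the groups overlap.

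In miR-124-3p, the leading miRNA of neurons, A-tailed reads were 72.6% and 73.7% in Dicer WT against 60.3% and 59.6% in Dicer KO (−0.86 ± 0.11, adjusted p = 1.16e-13). The difference lay in the longer listed tails, which were not compared with a hairpin. Single A stood at 38.6% and 37.7% in Dicer WT and near it in Dicer KO, at 36.98% and 36.8%, while AA went from 31.3% and 33.05% to 21.4% in both knock-out libraries and reads with no addition from 17.003% and 16.8% to 26.8% and 25.8%. With suffix A alone counted, the change was −0.07 (adjusted p = 0.781).

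**Figure D3:**
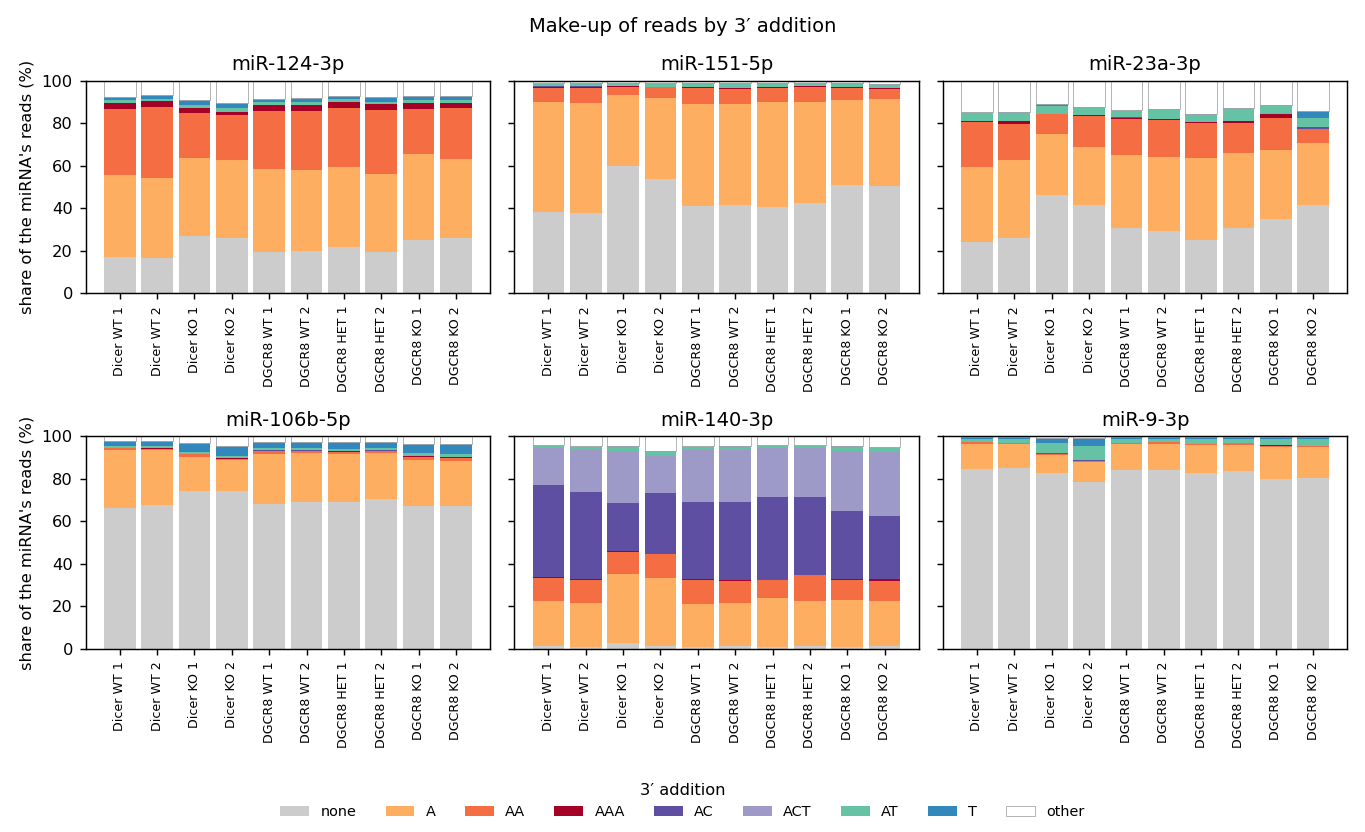
Share of reads (%) of 6 miRNAs by their 3′ addition in each of the 10 libraries, as stacked bars that sum to 100; the A-tailed forms are A, AA and AAA, and "other" holds every remaining addition. For miR-124-3p, AA is at 21.4% in both Dicer KO libraries against 31.3% and 33.05% in Dicer WT, and the suffix AC of miR-140-3p is at 22.7% and 28.5% in Dicer KO against 43.4% and 41.0% in Dicer WT.

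miR-23a-3p, a widely expressed miRNA, went from 57.2% and 55.4% in Dicer WT to 38.2% and 42.5% in Dicer KO (−0.94 ± 0.15, adjusted p = 1.58e-08), without overlap. miR-93-3p went from 81.0% and 81.7% to 73.0% and 68.5% (−0.82 ± 0.20, adjusted p = 0.00096), a call that was lost without Dicer KO replicate 2 (adjusted p = 0.0845). Nor was miR-93-3p called with DESeq2 (adjusted p = 0.0668) or against reads with no addition (−0.59, adjusted p = 0.267). The 5p partner miR-93-5p was at 7.56% and 7.90% in the wild type and at 7.86% and 9.55% in the knock-out.

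The other miRNAs called lower in Dicer KO were miR-192-5p (−0.63 ± 0.13), miR-181a-5p (−0.60 ± 0.19), miR-130a-3p (−0.47 ± 0.09), let-7e-5p (−0.46 ± 0.11) and miR-9-3p (−0.43 ± 0.10), with adjusted p from 1.95e-05 to 0.0321. Against reads with no addition miR-130a-3p was not called (−0.33, adjusted p = 0.104), nor with the lines fitted apart (adjusted p = 0.0765). Its single-T forms, which count among the other reads, were at 15.9% and 13.7% in Dicer KO against 6.42% and 7.18% in Dicer WT. Of these 5, miR-130a-3p kept its call without each library in turn. miR-181a-5p lost it in 6 of 10 omissions, miR-192-5p without Dicer KO replicate 1, let-7e-5p without Dicer WT replicate 2 or Dicer KO replicate 1, and miR-9-3p without Dicer KO replicate 1 or DGCR8 WT replicate 1.

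miR-140-3p, best known from cartilage, carried A tails on 32.6% and 32.2% of wild-type reads and on 43.1% and 43.7% in Dicer KO (0.67 ± 0.12, adjusted p = 7.32e-07). The 6 DGCR8-line libraries were all near the Dicer WT level, from 31.3% to 33.5%. Single A was at 21.2% and 20.8% in Dicer WT against 32.4% and 32.0% in Dicer KO, while AA was 10.998% and 10.997% against 10.2% and 11.7%. Over the same libraries suffix AC was lower in Dicer KO. Against its few reads with no addition the direction turned (−0.75, adjusted p = 0.226).

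miR-191-5p, an abundant miRNA of many tissues, had A tails on 1.04% and 0.888% of reads in Dicer WT and on 1.40% and 1.98% in Dicer KO (0.79 ± 0.13, adjusted p = 4.34e-08). Its single-T forms were also higher there, 27.7% and 29.3% against 19.7% and 18.8%. miR-219a-1-3p, of a family tied to oligodendrocytes, was at 22.8% and 23.4% against 37.9% and 28.2% (0.75 ± 0.19, adjusted p = 0.00197), but the call was lost without Dicer KO replicate 1 (0.39, adjusted p = 0.592) and without Dicer WT replicate 1. miR-139-5p, from an intron of Pde2a, showed the largest rise (1.28 ± 0.40, adjusted p = 0.0282) on only 14 to 18 A-tailed reads per library, and lost its call in 3 of 10 omissions. The remaining 2, miR-351-5p (0.38 ± 0.09, adjusted p = 8.86e-04) and miR-532-5p (0.36 ± 0.12, adjusted p = 0.0326), lost their calls in 4 and 3 omissions. DESeq2 did not call miR-219a-1-3p (adjusted p = 0.310), miR-139-5p (adjusted p = 0.457) or miR-532-5p (adjusted p = 0.0926). By edgeR with libraries thinned to the same depth, their adjusted p was 0.140, 0.684 and 0.113.

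The second comparison, DGCR8 KO against DGCR8 WT, concerns the nuclear step, which makes the 3′ ends of 3p miRNAs. Here the calls went nearly all one way, towards fewer A tails, and took in 4 let-7 guide strands, miR-181b-5p, both miR-130 members and miR-151-5p. Of 175 miRNAs 17 were called, 1 higher and 16 lower. Of all names 5.92% were called, 0.348% higher and 5.57% lower. DESeq2 called 10. The count leaned on single libraries: 3 were called without DGCR8 WT replicate 1, 7 without DGCR8 WT replicate 2 and 7 without DGCR8 KO replicate 1. miR-181b-5p, miR-130b-3p and let-7b-5p kept their calls in every omission. The called miRNAs were 9 of 84 on the 5p arm, 7 of 89 on the 3p arm and miR-484. By next base they were 3 of 21 with A next and 10 of 118 with another base next, classes that differ in A-tailed share. All 17 had groups that did not overlap, against 56.1% of the 132 miRNAs with at least 10 A-tailed reads in each of the 4 libraries.

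The miRNAs that fell include several with the same seed, the bases 2 to 8 that pair with targets, set in capitals in these RefSeq sequences.
let-7b-5p: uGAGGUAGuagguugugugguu
let-7e-5p: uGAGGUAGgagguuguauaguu
let-7i-5p: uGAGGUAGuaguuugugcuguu
miR-130a-3p: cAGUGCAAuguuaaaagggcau
miR-130b-3p: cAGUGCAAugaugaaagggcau
miR-181b-5p: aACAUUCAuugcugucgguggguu
miR-149-5p: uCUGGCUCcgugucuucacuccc
miR-92b-3p: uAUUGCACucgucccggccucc
Members of a family differ in few bases, and how the authors treated reads that match several of them is not given in the sources used here, so single let-7 values are uncertain to that extent.

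let-7b-5p, of the family that accumulates as progenitors mature, had A tails on 8.88% and 8.81% of reads in DGCR8 WT, on 8.94% and 8.62% in DGCR8 HET and on 6.36% and 6.22% in DGCR8 KO. Both knock-out libraries lay below the other 4 of the line (−0.53 ± 0.12, adjusted p = 6.01e-04). let-7i-5p was at 12.04% and 12.03% in DGCR8 WT and at 9.05% and 9.61% in DGCR8 KO (−0.41 ± 0.08, adjusted p = 1.64e-05). let-7e-5p (−0.40 ± 0.10, adjusted p = 0.00154) and let-7g-5p (−0.34 ± 0.11, adjusted p = 0.0276) were called as well.

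Over the 9 let-7 guide strands 4 were called lower and 0 higher, with a median log2 odds change of −0.40 beside −0.09 over all names tested. The other 5 were not called, among them let-7a-5p (−0.16) and let-7c-5p (−0.07). The call of let-7e-5p was lost without either DGCR8 WT library, and that of let-7i-5p without any 1 of the DGCR8 WT and DGCR8 KO libraries. DESeq2 did not call let-7e-5p (adjusted p = 0.0759) or let-7i-5p (adjusted p = 0.161) in DGCR8 KO. Nor were they called by edgeR with libraries thinned to the same depth (adjusted p = 0.321 and 0.345). let-7b-5p kept its call in both settings. In Dicer KO the median of the family was −0.10, with let-7e-5p alone called.

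miR-181b-5p, of a family found in lymphocytes and neurons, was at 1.51% and 1.70% in the wild type and at 0.867% and 1.05% in the knock-out (−0.76 ± 0.15, adjusted p = 4.10e-05). miR-130b-3p was at 15.9% and 16.6% in the wild type and at 11.2% and 11.6% in the knock-out (−0.60 ± 0.09, adjusted p = 2.49e-09). DGCR8 HET stood at 1.38% and 1.52% for miR-181b-5p and at 15.7% and 16.5% for miR-130b-3p. miR-130a-3p, with the seed of miR-130b-3p, went from 7.75% and 8.18% to 5.62% and 5.79% (−0.52 ± 0.09, adjusted p = 2.96e-07), a call lost without either DGCR8 WT library or DGCR8 KO replicate 1.

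miR-151-5p, the largest fall of Dicer KO, was again lower (−0.55 ± 0.08, adjusted p = 1.70e-09), but not without DGCR8 WT replicate 1 (adjusted p = 0.0629). Among the other calls were miR-148b-3p (−0.54 ± 0.18, adjusted p = 0.0374), miR-149-5p from an intron of Gpc1 (−0.48 ± 0.09, adjusted p = 2.03e-05) and miR-92b-3p of cortical progenitors (−0.45 ± 0.13, adjusted p = 0.0181). Each of these 3 lost its call in 3 or 4 of the 10 omissions. Smaller falls were called for miR-532-5p (−0.39 ± 0.12), miR-484 (−0.37 ± 0.09), miR-103-3p (−0.34 ± 0.11), miR-124-3p (−0.32 ± 0.08) and miR-486-5p (−0.28 ± 0.09), with adjusted p from 0.00142 to 0.0374. The 1 miRNA called higher was miR-9-3p, at 12.8% and 12.9% in the wild type and 16.0% and 15.1% in the knock-out (0.32 ± 0.09, adjusted p = 0.00706), a call lost in 3 omissions.

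**Figure D4:**
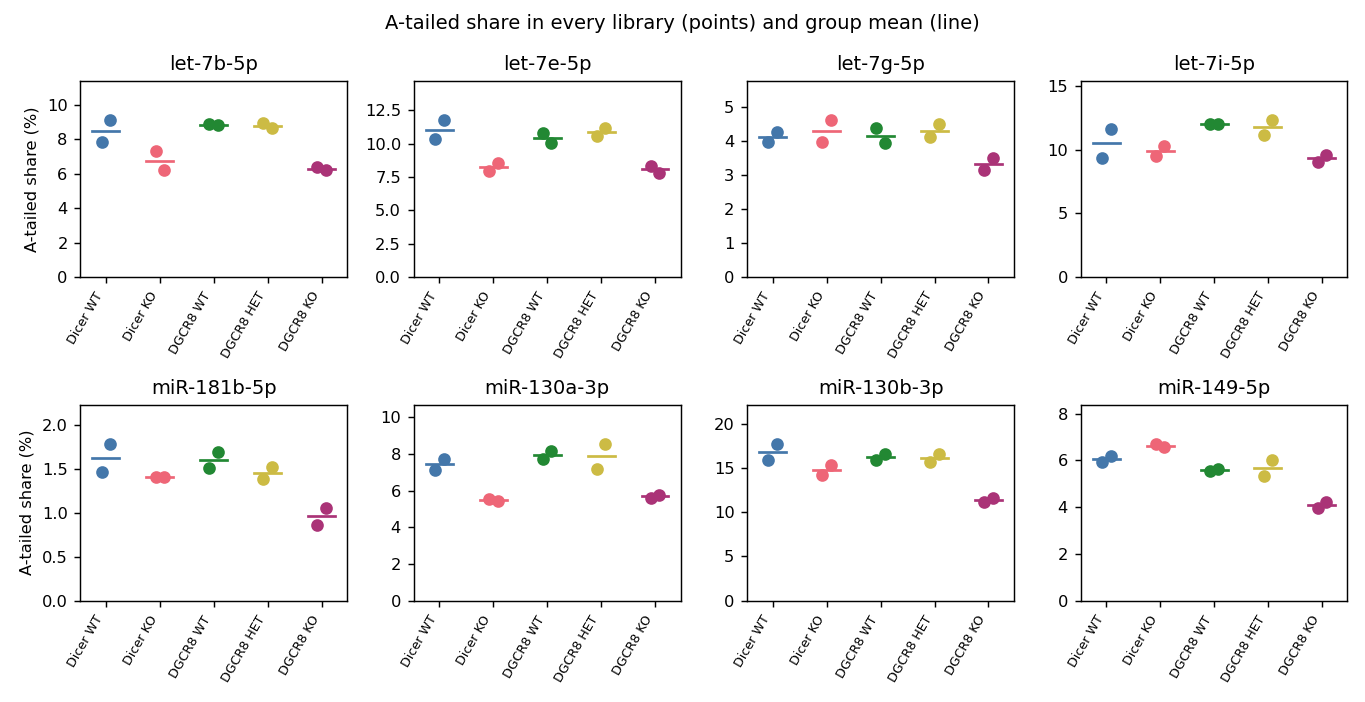
A-tailed share (%) of 8 miRNAs called lower in DGCR8 KO than in DGCR8 WT; points are the 2 libraries of each of the 5 groups and lines are group means, on axes that start at 0. Both DGCR8 KO points lie below the DGCR8 WT and DGCR8 HET points in all 8 panels, as for miR-130b-3p at 11.2% and 11.6%.

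Heterozygotes gave no call against wild types. Between DGCR8 HET and DGCR8 WT, 0 of 175 miRNAs were called by edgeR, against 0% of all names, with 6 at an unadjusted p below 0.05, and 0 were called by DESeq2 or limma. Against DGCR8 HET, DGCR8 KO gave 15 calls, all lower, beside 5.23% of all names. DGCR8 KO enters both comparisons, so they are not independent. miR-130b-3p (−0.58 ± 0.09), miR-151-5p (−0.56 ± 0.08) and let-7b-5p (−0.52 ± 0.12) kept their calls in every omission here, with adjusted p of 1.01e-08, 1.29e-09 and 0.00125. miR-148b-3p (−0.65 ± 0.18) and miR-181b-5p (−0.61 ± 0.15) lost theirs without DGCR8 HET replicate 2 or DGCR8 KO replicate 1. In all, 9 were called without DGCR8 HET replicate 2 and 7 without DGCR8 KO replicate 1.

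Across the knock-outs, which have separate controls but share a fit and its spread, 6 miRNAs were called in both. They made up 37.5% of the Dicer KO calls and 35.3% of the DGCR8 KO calls. Over all 175 tested miRNAs, 9.14% were called in Dicer KO and 9.71% in DGCR8 KO. Whether the number of A-tailed reads behind a miRNA accounts for the overlap was not tested. Of the 6, miR-151-5p, miR-124-3p, miR-130a-3p and let-7e-5p were lower in both. The fall of miR-130a-3p in Dicer KO was not called against reads with no addition (adjusted p = 0.104). miR-9-3p and miR-532-5p moved in opposite directions. miR-9-3p fell to 9.23% and 9.89% in Dicer KO from 12.7% and 12.05%, and rose in DGCR8 KO. miR-532-5p was at 10.9% and 11.5% in Dicer KO above 8.73% and 9.16% in its wild type, but at 5.87% and 6.22% in DGCR8 KO below 7.92% and 7.58% in its wild type.

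The difference between the knock-out effects was itself tested, as the change in DGCR8 KO less the change in Dicer KO. It was called for 9 of 175 miRNAs, 5 higher and 4 lower, beside 3.83% of all names (2.44% higher, 1.39% lower), and for 5 without either DGCR8 WT library. The largest positive differences were those of miR-106b-5p (0.79 ± 0.14, adjusted p = 4.58e-06) and miR-9-3p (0.75 ± 0.13, adjusted p = 4.58e-06), and the largest negative ones those of miR-532-5p (−0.75 ± 0.17, adjusted p = 3.72e-04) and miR-191-5p (−0.69 ± 0.19, adjusted p = 0.00838). Of these 4, miR-191-5p lost its call in 8 omissions and the others kept theirs in all. The call of miR-532-5p was lost with libraries thinned to one depth (adjusted p = 0.231). For miR-130a-3p and let-7e-5p the differences were −0.05 ± 0.13 and 0.06 ± 0.15, and neither was called.

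**Figure D5:**
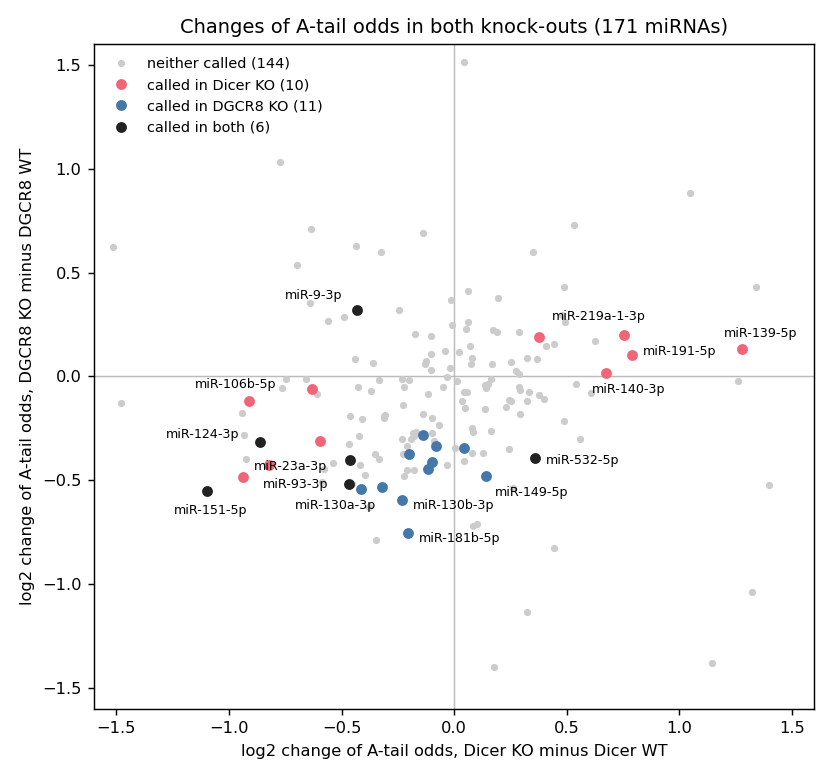
Log2 change of the odds of an A tail in Dicer KO (horizontal) and DGCR8 KO (vertical), each against the wild type of its line, for 171 of the 175 tested miRNAs; 4 uncalled miRNAs lie beyond the axis limit of 1.6. Colours mark the calls, and the 6 miRNAs called in both are black, with miR-9-3p above and miR-532-5p below the horizontal line on opposite sides.

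The wild types of the lines also differed. DGCR8 WT against Dicer WT gave 14 calls among 175, 2 higher and 12 lower, beside 5.23% of all names (0.697% higher, 4.53% lower). Without Dicer WT replicate 1 there were 4, and 5 without either DGCR8 WT library. Of the 12 lower calls 10 were 3p miRNAs, and 5 belonged to the imprinted 12qF1 cluster, a large maternally expressed miRNA group. miR-127-3p of that cluster was at 7.64% and 6.80% in Dicer WT and at 4.49% and 4.43% in DGCR8 WT (−0.74 ± 0.14, adjusted p = 1.14e-05). miR-409-3p was at 3.71% and 3.55% against 1.73% and 1.43% (−1.21 ± 0.22, adjusted p = 1.14e-05). Both kept their calls in every omission. With suffix A alone counted, miR-127-3p kept its call and miR-409-3p did not (−0.93, adjusted p = 0.187).

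The remaining calls of the cluster were miR-543-3p (−1.26 ± 0.31), miR-434-3p (−0.87 ± 0.26) and miR-300-3p (−0.46 ± 0.09), with adjusted p of 0.00254, 0.0223 and 5.01e-05. The first was lost in 2 omissions and miR-434-3p in 4. Over its 26 members the median change between the wild types was −0.50, beside −0.05 over all names tested. In the knock-outs 0 of the 26 were called by edgeR, with medians of 0.15 in Dicer KO and 0.06 in DGCR8 KO. Outside the cluster, imprinted miR-335-3p was lower in DGCR8 WT (−1.06 ± 0.34, adjusted p = 0.0330). The 2 higher calls were miR-16-5p (0.43 ± 0.14, adjusted p = 0.0457) and miR-486-5p of erythroid cells (0.40 ± 0.09, adjusted p = 2.62e-04). All 3 lost their calls without Dicer WT replicate 1 and without either DGCR8 WT library. The call of miR-486-5p was also lost with suffix A alone (0.26, adjusted p = 0.794) and against reads with no addition (0.05, adjusted p = 0.92). Line and any batch that goes with it cannot be told apart.

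The other lists gave 0 to 2 calls in each knock-out, to be read beside the 4.53% and 5.57% of all names called lower in Dicer KO and DGCR8 KO. The 14 members of the miR-17-92 and paralog clusters, 13 of them tested, had a median share of 5.42% and gave 2 lower calls in Dicer KO, miR-106b-5p and miR-93-3p, and 0 in DGCR8 KO. The 7 members of the miR-30 family had shares from 0.0329% to 1.40% and 0 calls in either knock-out. The 6 tested members of the miR-181 family gave 1 lower call in each, miR-181a-5p in Dicer KO and miR-181b-5p in DGCR8 KO. Among the 7 vessel and blood markers in the set, 6 of them tested, 0 were called in Dicer KO and 1, miR-486-5p, was lower in DGCR8 KO (−0.28 ± 0.09, adjusted p = 0.0374). Endothelial miR-126a-3p was at 4.28% and 4.50% in the Dicer wild type and at 5.48% and 4.45% in the Dicer knock-out, and smooth-muscle miR-143-3p at 7.27% and 7.35% and at 7.74% and 6.59%.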

How the data were processed

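The authors deposited 1 table of raw read counts per mature miRNA name and 3′ suffix for 10 libraries, made per the labels from 1000 ng of total RNA with a TruSeq small RNA kit. The submitters' processing notes name Bowtie and GRCm38, with no version. Reads of each name were summed over suffixes, with 1 entry name that stood in more than 1 row. Shares are A, AA and AAA reads over all reads of the name.

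Odds were tested with edgeR 4.0.16 (R 4.3.3, glmQLFit and glmQLFTest) on A-tailed and other counts, with 1 term per library and 1 A-tail term per group, over all 10 libraries. Names entered with at least 10 reads in each library and 10 A-tailed reads in all. The fit had 5 residual degrees of freedom and a biological coefficient of variation of 0.0616. Calls needed an adjusted p below 0.05, and ± is the SE of the fit. The fit was tested on simulated data. Alternatives used DESeq2 1.42.0, limma 3.58.1 (pseudocount 0.5), TMM offsets, other tail definitions, filters and thinning, a replicate block, and each library left out.

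Named miRNAs were the 10 highest and 3 lowest shares per arm, the 10 most abundant, the 5 widest arm gaps, and per knock-out up to 10 called changes each way (5 in other contrasts) with 10 A-tailed reads in each compared library and no overlap of groups. Further called members, and miR-872-3p, miR-106b-3p, miR-93-5p, miR-126a-3p and miR-143-3p, were named after their values were seen. Members and lists were chosen with earlier results of these data known. Replicates of a group differed beyond sampling noise, so none was merged.

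Mature sequences in RefSeq were found for 158 of the 180 miRNAs. Depth is miRNA reads, and total reads were not used here.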

Additional observations from a re-analysis of the deposited data

Results flagged for a closer look

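For 9 miRNAs the change of A-tail odds differed between the knock-outs by edgeR's test of the difference itself (DGCR8 KO effect minus Dicer KO effect, Benjamini-Hochberg adjusted over 287 names). The difference was 0.79 for miR-106b-5p (adjusted p = 4.58e-06), 0.75 for miR-9-3p (adjusted p = 4.58e-06), 0.57 for miR-192-5p (adjusted p = 0.0367), 0.55 for miR-151-5p (adjusted p = 1.04e-04) and 0.55 for miR-124-3p (adjusted p = 0.00248). It was −0.75 for miR-532-5p (adjusted p = 3.72e-04), −0.69 for miR-191-5p (adjusted p = 0.00838), −0.66 for miR-140-3p (adjusted p = 0.00248) and −0.62 for miR-149-5p (adjusted p = 3.72e-04). The 5 that kept their calls in every omission of a library were miR-106b-5p, miR-9-3p, miR-124-3p, miR-532-5p and miR-140-3p. Under other edgeR settings miR-124-3p lost its call with suffix A alone (0.09, adjusted p = 0.87) and against reads with no addition (0.44, adjusted p = 0.195). With libraries thinned to one depth, miR-532-5p (adjusted p = 0.231) and miR-140-3p (adjusted p = 0.0649) lost theirs. With plain limma on the log2 odds 0 of the 9 were called, and with limma and a trend of the spread 7 miRNAs were.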

How the results depend on the processing

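Counts of called miRNAs moved as follows, and the cause was not tested. Dicer KO (16) gave 4 with limma on log2 odds and 9 with the lines fitted apart, and 15 to 18 when a library was left out. DGCR8 KO (17) gave 10 with DESeq2, 0 with limma and 11 with libraries thinned to one depth, and 3 to 20 with a library left out. DGCR8 KO against DGCR8 HET (15) gave 7 with DESeq2, 0 with limma, 9 thinned and 23 with the lines fitted apart, and 7 to 17 with a library left out. The difference of the knock-outs (9) gave 0 with limma and 5 thinned, and 5 to 13 with a library left out. The wild types (14) gave 2 with DESeq2, 0 with limma, 9 with no filter, 7 with suffix A alone, 9 against reads with no addition and 6 thinned, and 4 to 16 with a library left out. Settings chosen after seeing the data were edgeR with 1 dispersion for all names, which gave 9 for DGCR8 KO and 9 against DGCR8 HET, and limma with a trend of the spread, which gave 7, 8 and, for the wild types, 2. DGCR8 HET against DGCR8 WT stayed at 0 in every setting and omission run.

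The difference between arm medians (2.12 points) was 1.29 with at least 50 reads, 1.47 with 200, 1.79 with 1000, 1.66 for suffix A alone, 3.71 against reads with no addition and 1.59 without A-next miRNAs, and 2.08 to 2.17 with a library left out. Of the named changes, miR-140-3p turned against reads with no addition, to −0.75 in Dicer KO and 0.94 for the difference. Replicate numbers do not pair the libraries (correlations of deviations from −0.267 to 0.163). With a replicate block 18, 15, 0, 14, 11 and 14 miRNAs were called, in the order Dicer KO, DGCR8 KO, DGCR8 HET, DGCR8 KO against DGCR8 HET, the difference and the wild types. Lines fitted apart could not be run for the difference and the wild types. Depth limits rare tails: 19 miRNAs had no A-tailed read in at least 1 library.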
